A study of Danio rerio with 16 samples.

Results

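The 54 collagen genes measured in this series are described across dissected eyes and dissected brains of zebrafish larvae. They were found by symbol: of 31901 genes in each expression table, 56 were annotated as protein coding and had a symbol that begins as a collagen chain does (col, a type number, a and a chain number). Of these, 2 (col4a3bpa and col4a3bpb) encode ceramide transfer proteins first named for binding a collagen chain, and they were set aside as no collagens. The other 54 gene identifiers carry 52 symbols, since col6a3 and col19a1 each stand on 2 identifiers. The symbol rule itself uses no measured value, but the family was chosen with earlier results of these data known.

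The series asks what lies behind the change in the larval movement response to light after exposure to phenol isopropylated phosphate (IPP), a flame retardant and plasticizer of the organophosphate kind. All larvae were wild type. They were kept from 6 to 120 hours post fertilization (hpf) in water with 0.2 uM IPP in 0.02% dimethyl sulfoxide (DMSO), or with 0.02% DMSO alone, and the eyes and brains were dissected at 120 hpf. The 4 groups are IPP eyes, DMSO eyes, IPP brains and DMSO brains, with 4 libraries each and 16 libraries in all. Whether libraries of one group are separate clutches or pools is not stated in the labels, and each p-value therefore measures the spread between these libraries and no more.

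Collagens are proteins of the extracellular matrix whose chains wind into a triple helix. Fibrillar types form the fibrils of skin, cornea, sclera and cartilage, fibril-associated types coat those fibrils, and network types form the sheet of basement membranes or the matrix around hypertrophic cartilage. In the eye, collagens build the cornea, the sclera, the vitreous and the basement membranes of the lens and retina. Neural tissue itself holds little fibrillar collagen, while the skull cartilage, meninges and skin around a larval brain are rich in it.

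Levels are in FPKM, which divides reads by gene length and a scale set per library. Median-of-ratios size factors worked out from the FPKM were 1.01057 in every eye library and 1.00296 in every brain library. Levels were thus already even on that measure within each tissue. The eye and brain tables were scaled separately, so levels set side by side across the tissues are described and not tested. Whole reads rebuilt from the FPKM summed to 10.6 to 12.5 M in the eye libraries and 9.62 to 16.3 M in the brain libraries. The rod photopigment rho, a defining marker of the eye, lay at 4165 to 4959 FPKM in IPP eyes and 3313 to 5434 FPKM in DMSO eyes, and at 0.264 to 35.3 FPKM in IPP brains and 0.158 to 6.47 FPKM in DMSO brains. The midbrain and hindbrain marker en2b lay at 21.2 to 37.6 FPKM in IPP brains and 32.9 to 38.2 FPKM in DMSO brains, and at 0.166 to 0.515 FPKM in IPP eyes and 0.0527 to 0.526 FPKM in DMSO eyes. Both markers were thus far higher in the tissue that the labels name. Among brains, IPP brain 4 held the highest sum of eye markers, given below. Brain libraries 3 and 4 of both groups stood apart from libraries 1 and 2 in collagen, cartilage and skin genes, and IPP brain 4 and DMSO brain 1 held high levels of liver genes, so counts over the brain collagens are also given without these libraries. In bulk tissue, fewer cells of a type and less RNA per cell cannot be told apart. The labels describe both strand-specific and non-specific library preparation, so for the 20 collagen genes that overlap another annotated gene (9 on the same strand, 11 on the opposite one) the share of reads that belongs to each gene is uncertain.

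In the eye, collagen genes took 0.509%, 0.529%, 0.415% and 0.614% of the rebuilt reads in the IPP libraries and 0.384%, 0.406%, 0.511% and 0.539% in the DMSO libraries. The groups overlap, with DMSO eyes 1 and 2 lowest and IPP eye 4 highest of the 8. Of the 54 genes, 43 reached a mean level of 0.5 FPKM in the 8 eye libraries, the minimum for a test, and 21 had a mean over 10 FPKM. Chains of type I collagen, the main fibril of skin, cornea and bone, stood at the top. col1a1b (chromosome 12, 3095699 to 3133483, minus strand) had 109, 141, 114 and 160.2 FPKM in IPP eyes, against 100.5, 119, 147 and 119 FPKM in DMSO eyes. Its partner chain col1a2 (chromosome 19, 40983221 to 41002980, plus strand) had 91, 109, 92.6 and 128 FPKM in IPP eyes, against 80.01, 91, 114 and 95.6 FPKM in DMSO eyes. The third chain of fish type I collagen, col1a1a (chromosome 3, 23221047 to 23239458, plus strand), averaged 36.4 ± 7.65 FPKM in IPP eyes and 34.6 ± 9.66 FPKM in DMSO eyes (SD, n = 4 each). For each of the 3 chains the groups overlap, and IPP eye 4 and DMSO eye 3 were the highest of their groups. Coordinates are those of the deposited tables, made on a genome build that was not given in the sources used here.

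Collagens of other classes were abundant in the eye as well. Type II collagen, the fibril of cartilage and of the vitreous, is encoded by 2 fish genes. Of these, col2a1a (chromosome 8, 21195420 to 21219473, plus strand) averaged 50.4 ± 13.9 FPKM in IPP eyes and 37.8 ± 6.85 FPKM in DMSO eyes (SD, n = 4 each, here and below). col2a1b averaged 57.6 ± 13.4 FPKM in IPP eyes and 51.7 ± 9.87 FPKM in DMSO eyes. Of the basement membrane chains, col4a5, a chain of specialised type IV networks, averaged 63.3 ± 10.2 FPKM in IPP eyes and 66.6 ± 5.98 FPKM in DMSO eyes. Its neighbour in the genome col4a6 averaged 24.8 ± 2.23 FPKM in IPP eyes and 22.3 ± 1.98 FPKM in DMSO eyes, and col15a1b, of the type XV that links basement membrane to fibrils, averaged 51.9 ± 3.04 FPKM in IPP eyes and 57.3 ± 7.47 FPKM in DMSO eyes. The chains of the ubiquitous type IV network stood lower, and in each of these basement membrane genes the groups overlap. For col4a2 the level was 5.65 ± 0.598 FPKM in IPP eyes and 4.11 ± 1.28 FPKM in DMSO eyes, and for col4a1 it was 3.68 ± 0.985 FPKM in IPP eyes and 2.55 ± 1.36 FPKM in DMSO eyes. Type XVII, a transmembrane collagen that fastens basal cells of epithelia to their basement membrane, was represented by col17a1a with 41.7 ± 4.52 FPKM in IPP eyes and 36.3 ± 8.78 FPKM in DMSO eyes. Its paralog col17a1b had 3.39 ± 0.871 FPKM in IPP eyes and 2.76 ± 0.758 FPKM in DMSO eyes. The fibril-associated type IX collagen, which decorates type II fibrils, is built from chains of several genes. col9a3 averaged 31.2 ± 9.31 FPKM in IPP eyes and 24.2 ± 4.47 FPKM in DMSO eyes. col9a2 averaged 29.2 ± 7.14 FPKM in IPP eyes and 24.3 ± 3.48 FPKM in DMSO eyes. col9a1a averaged 20.3 ± 8.44 FPKM in IPP eyes and 15.4 ± 3.69 FPKM in DMSO eyes. Its paralog col9a1b lay lower, at 2.88 ± 0.906 FPKM in IPP eyes and 2.74 ± 0.656 FPKM in DMSO eyes. Type VI, which forms beaded filaments, was led by col6a1 with 12.5 ± 2.42 FPKM in IPP eyes and 9.45 ± 4.39 FPKM in DMSO eyes. Its partner col6a2 had 9.83 ± 2.73 FPKM in IPP eyes and 7.97 ± 3.68 FPKM in DMSO eyes.

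The remaining chains of the fibril builders lay lower than those of types I and II. Type V nucleates type I fibrils, and its main chain col5a1 averaged 19.4 ± 3.46 FPKM in IPP eyes and 17.2 ± 4.63 FPKM in DMSO eyes. Type XI does the same for type II fibrils, and here col11a1a averaged 22 ± 7.59 FPKM in IPP eyes and 19.3 ± 1.94 FPKM in DMSO eyes. The type XI chain col11a2 averaged 8.41 ± 4.11 FPKM in IPP eyes and 6.23 ± 3.11 FPKM in DMSO eyes. col12a1a, a fibril-associated chain of tissue borders, averaged 12 ± 4.25 FPKM in IPP eyes and 10.9 ± 4.98 FPKM in DMSO eyes. col18a1a, a basement membrane collagen and the source of endostatin, averaged 19.7 ± 5.61 FPKM in IPP eyes and 19.1 ± 2.73 FPKM in DMSO eyes. col8a2, a chain of the network type found in the membrane behind the cornea in mammals, averaged 8.33 ± 1.84 FPKM in IPP eyes and 6.46 ± 1.45 FPKM in DMSO eyes. The anchoring fibril gene col7a1, which ties epithelial basement membrane to the tissue below, averaged 1.47 ± 0.394 FPKM in IPP eyes and 1.18 ± 0.0841 FPKM in DMSO eyes. col28a1a, of the little known type XXVIII, averaged 11.1 ± 0.768 FPKM in IPP eyes and 11 ± 1.81 FPKM in DMSO eyes. Its paralog col28a1b averaged 4.22 ± 0.562 FPKM in IPP eyes and 4.1 ± 0.585 FPKM in DMSO eyes. In each of these genes the IPP and DMSO eyes overlapped.

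**Figure D1:**
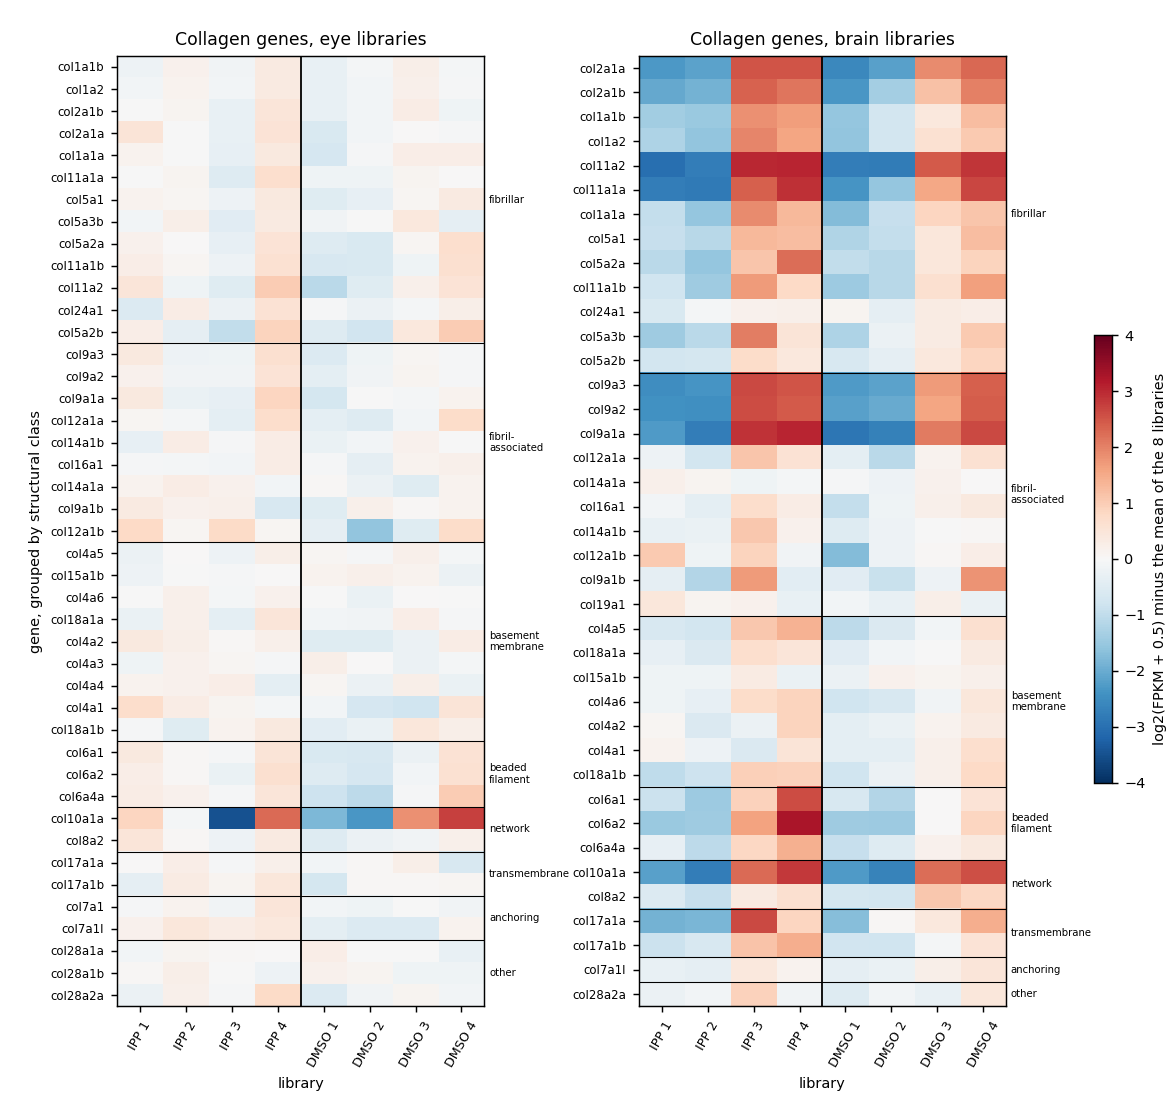
Level of each tested collagen gene in each library, as log2(FPKM + 0.5) minus the mean of the 8 libraries of that tissue (colour), with 43 genes in the eye panel and 39 in the brain panel, grouped by structural class, IPP libraries left of DMSO libraries. In the brain panel libraries 3 and 4 of both groups are high in most rows, and in the eye panel col10a1a is the gene with the widest range.

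The spread between eye libraries differed from collagen to collagen. The highest library was less than 2-fold over the lowest in 20 of the 43 genes and more than 10-fold over it in 3, which were col10a1a, col5a2b and col12a1b. The median range from lowest to highest library was 0.99 on the log2(FPKM + 0.5) scale, against 0.75 over all 17096 genes tested in the eye. The widest spread was that of col10a1a (chromosome 17, 15542077 to 15546862, minus strand), which encodes the network collagen of hypertrophic cartilage and early bone. It had 18.5, 9.39, 0.442 and 50.3 FPKM in IPP eyes, against 2.48, 1.56, 36.2 and 69.4 FPKM in DMSO eyes. High and low libraries occurred in both groups, IPP eye 3 was lowest and DMSO eye 4 highest. It was the sole collagen of 43 in the eye with a log2 range over 3, a range that 1.63% of all tested genes exceeded. The cartilage matrix gene matn1 had 26.4, 1.76, 11.5 and 57 FPKM in IPP eyes, against 1.58, 1.21, 25.4 and 38.5 FPKM in DMSO eyes, again with high and low libraries in both groups. The 4 highest libraries were the same for both genes, IPP eyes 1 and 4 and DMSO eyes 3 and 4.

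The brain libraries fell apart by number. Collagen genes took 0.0728%, 0.0600%, 0.526% and 0.474% of the rebuilt reads in IPP brains and 0.0529%, 0.0726%, 0.285% and 0.437% in DMSO brains. Libraries 3 and 4 of each group held the high shares, so the groups overlap fully. As summed FPKM, the 54 genes reached 114, 96.9, 985 and 973 FPKM in IPP brains and 92.3, 123, 527 and 798 FPKM in DMSO brains. The same sums in eyes were 845, 874, 724 and 1124 FPKM in IPP eyes and 680, 751, 938 and 892 FPKM in DMSO eyes. No label names a batch, a day or a dissector for these numbers. Brain libraries 3 and 4 of the IPP group were also the deepest, with 16.3 M rebuilt reads each, while DMSO brains 3 and 4 had 12.5 and 11.7 M and the other 4 brain libraries 9.62 to 11.6 M. The part of depth in the split was not tested.

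Of the 39 collagen genes tested in the brain, 31 had their 4 highest values in libraries 3 and 4 of the 2 groups, against 6.07% of all 17533 genes tested (1 of 43 collagens and 1.54% of all genes in the eye). Some of these genes reach the minimum of 0.5 FPKM through the high libraries alone. Among the 32 collagens whose mean over libraries 1 and 2 also reached it, 25 had this order, against 3.98% of all genes that did so. A log2 range over 3 was seen in 17 of 39, against 5.78% of all genes, and the median range was 2.50 for collagens and 0.76 for all genes.

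**Figure D2:**
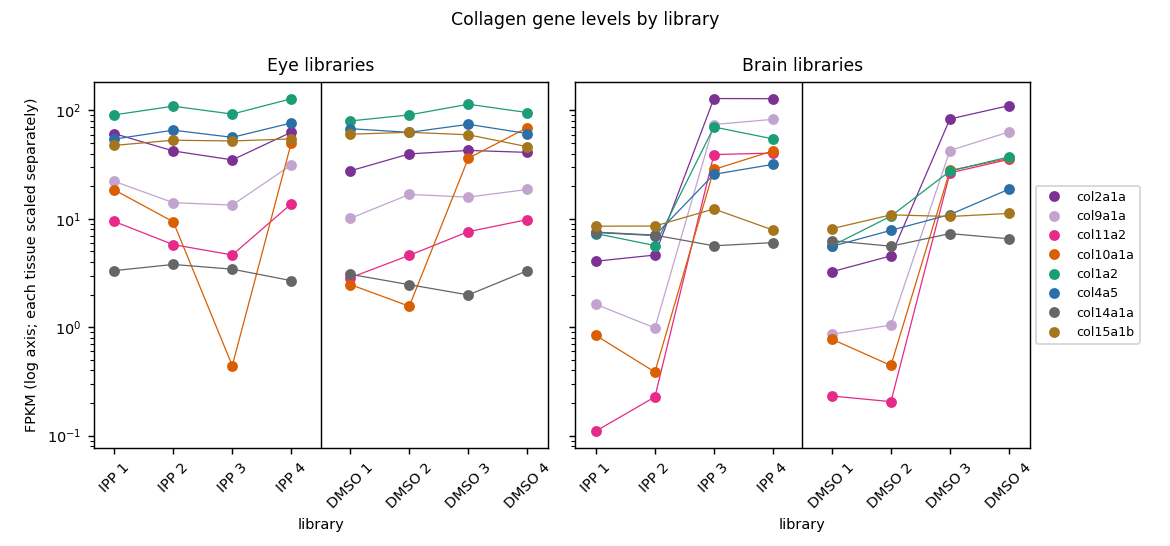
FPKM (log axis) of 8 collagen genes in each eye library (left) and each brain library (right), IPP libraries left of DMSO libraries; lines only link the points of a gene. In brains col2a1a, col9a1a, col11a2, col10a1a and col1a2 are far higher in libraries 3 and 4 of both groups, while col14a1a and col15a1b stay level.

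The cartilage collagens carried the split most plainly. In the brain col2a1a had 4.07, 4.64, 129 and 128 FPKM in IPP brains, against 3.26, 4.56, 83.4 and 111 FPKM in DMSO brains. The nucleating chain col11a2 (chromosome 19, 7179740 to 7225206, minus strand) had 0.11, 0.228, 39.2 and 40.4 FPKM in IPP brains, against 0.232, 0.206, 26.6 and 35.4 FPKM in DMSO brains. Its 2 low libraries in each group stand on few reads, 10 at the least, while the deepest held 5201 reads. The type IX chain col9a1a had 1.63, 0.987, 74.2 and 82.8 FPKM in IPP brains, against 0.862, 1.05, 42.7 and 63.4 FPKM in DMSO brains. For all 3 genes every library numbered 3 or 4 lay above every library numbered 1 or 2, in IPP and in DMSO brains alike. The other chains of these types had the same order. col2a1b ranged over 3.68 to 88.7 FPKM in IPP brains and 2.97 to 69.4 FPKM in DMSO brains. For col9a2 the range was 2.32 to 94.2 FPKM in IPP brains and 2.93 to 82.2 FPKM in DMSO brains, and for col9a3 it was 2.42 to 103 FPKM in IPP brains and 2.92 to 85.3 FPKM in DMSO brains. The nucleating chain col11a1a ranged over 0.335 to 44.6 FPKM in IPP brains and 0.649 to 36.9 FPKM in DMSO brains. col10a1a had 0.841, 0.386, 28.5 and 42.4 FPKM in IPP brains, against 0.776, 0.444, 28 and 36.1 FPKM in DMSO brains, again with libraries 3 and 4 above libraries 1 and 2 in both groups. Unlike in the eye, its high libraries here were the same as those of col2a1a.

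Type I collagen followed with a smaller gap. col1a1b had 7.79, 7.36, 76.9 and 69.7 FPKM in IPP brains, against 6.99, 12.6, 29 and 51.4 FPKM in DMSO brains. col1a2 had 7.32, 5.67, 70.4 and 54.7 FPKM in IPP brains, against 5.64, 10.6, 27.6 and 37.3 FPKM in DMSO brains. For each gene DMSO brain 2 was the highest of the low libraries and DMSO brain 3 the lowest of the high ones. The third chain col1a1a and the type V chain col5a1 also had libraries 3 and 4 of both groups on top. col1a1a ranged over 2.73 to 34.8 FPKM in IPP brains and 2.35 to 19.9 FPKM in DMSO brains. col5a1 ranged over 2.57 to 15.7 FPKM in IPP brains and 2.36 to 15.1 FPKM in DMSO brains. The border collagen col12a1a kept the order with a smaller gap and had 5.54, 3.62, 14.5 and 9.68 FPKM in IPP brains, against 4.69, 2.74, 7.06 and 9.95 FPKM in DMSO brains.

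In some type VI and type XVII genes 1 library stood out. col6a2 had 0.358, 0.393, 6.69 and 22.4 FPKM in IPP brains, against 0.389, 0.377, 1.9 and 3.82 FPKM in DMSO brains, so that IPP brain 4 was the highest by far and IPP brain 3 and DMSO brains 3 and 4 came next. col6a1 had 2.25, 1.32, 8.95 and 30.2 FPKM in IPP brains, against 2.69, 1.71, 4.54 and 6.83 FPKM in DMSO brains, with the same library on top. The epithelial col17a1a had 0.337, 0.387, 19 and 5.17 FPKM in IPP brains, against 0.469, 2.72, 3.69 and 8.11 FPKM in DMSO brains. Here IPP brain 3 was highest and DMSO brain 2 lay above the other low libraries. The type VI chain col6a4a ranged over 0.627 to 5.73 FPKM in IPP brains and 0.737 to 2.6 FPKM in DMSO brains, and col17a1b over 0.244 to 3.22 FPKM in IPP brains and 0.286 to 1.47 FPKM in DMSO brains, with IPP brains 3 and 4 the highest for both genes.

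Basement membrane genes other than col18a1b moved less between brain libraries than the cartilage and type I collagens. col18a1b ranged over 0.149 to 2.02 FPKM in IPP brains and 0.249 to 1.76 FPKM in DMSO brains, with libraries 3 and 4 of both groups on top. Small ranges were not particular to this class, as the highest library was 2.12-fold over the lowest for col24a1 and 3.63-fold for col16a1. col4a5 had 7.48, 7.01, 25.8 and 31.8 FPKM in IPP brains, against 5.58, 7.83, 11 and 18.8 FPKM in DMSO brains. col4a6 had 5.03, 4.42, 9.91 and 11.1 FPKM in IPP brains, against 3.06, 3.52, 5.16 and 8.05 FPKM in DMSO brains. col18a1a had 8.1, 6.64, 16.7 and 14.5 FPKM in IPP brains, against 7.34, 9.37, 10.03 and 13.2 FPKM in DMSO brains. All 3 were highest in libraries 3 and 4 of their group, with a gap of a few fold at most. By contrast, 8 of the 39 genes did not have libraries 3 and 4 on top: col15a1b, col14a1a, col4a2, col4a1, col12a1b, col28a2a, col9a1b and 1 of the col19a1 identifiers. col4a1 had 2.33, 1.73, 1.23 and 3.17 FPKM in IPP brains, against 1.46, 1.48, 2.47 and 3.57 FPKM in DMSO brains. col4a2 had 3.98, 2.35, 3.12 and 7.44 FPKM in IPP brains, against 2.78, 3.05, 4.26 and 5.0 FPKM in DMSO brains. For both genes DMSO brains 3 and 4 lay above DMSO brains 1 and 2, while the IPP brains did not have this order. Library 4 of each group was the highest of its group in both. col15a1b, a collagen of vessel and muscle basement membranes, had 8.55, 8.59, 12.3 and 7.89 FPKM in IPP brains, against 8.12, 10.9, 10.5 and 11.2 FPKM in DMSO brains. The fibril-associated col14a1a had 7.55, 7.08, 5.64 and 6.04 FPKM in IPP brains, against 6.29, 5.59, 7.31 and 6.55 FPKM in DMSO brains, and its highest library was only 1.35-fold over its lowest.

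Markers of other tissues were set beside the split. Of the 21 cartilage markers listed, 19 were in the tables and 17 tested in the brain, with snorc at 0 throughout, and their FPKM summed to 109, 108, 465 and 477 FPKM in IPP brains, against 107, 101, 330.3 and 436 FPKM in DMSO brains. matn1, the most abundant of them, had 0.258, 0.395, 187 and 254 FPKM in IPP brains, against 1.77, 0.189, 133 and 159.5 FPKM in DMSO brains. The cartilage genes acana, epyc and cnmd, picked from the 17 tested markers after their values were seen, each had libraries 3 and 4 of both groups on top. How many of the 17 had this order was not counted, so these picks do not stand for the list. acana ranged over 0.185 to 8.66 FPKM in IPP brains and 0.251 to 5.71 FPKM in DMSO brains, epyc over 0.748 to 21.6 FPKM in IPP brains and 0.97 to 14.2 FPKM in DMSO brains and cnmd over 2.49 to 44.3 FPKM in IPP brains and 2.3 to 37.9 FPKM in DMSO brains. The transcription factors sox5 and sox9a, which neural cells express too, lay at 39.1 to 40.6 FPKM in IPP brains and 38.9 to 44.8 FPKM in DMSO brains, and at 31.4 to 34.8 FPKM in IPP brains and 31.1 to 40.2 FPKM in DMSO brains, with no such order. Of 30 skin and corneal epithelium markers 24 were tested, epcam was at 0 throughout, and the list summed to 130.2, 145, 2357 and 2313 FPKM in IPP brains, against 184, 455, 660.2 and 2332 FPKM in DMSO brains. The 3 most abundant of these were cyt1, krt91 and krt4, of which krt4 had 5.68, 2.19, 285 and 268 FPKM in IPP brains, against 3.43, 96.1, 107 and 244 FPKM in DMSO brains. The 25 skeletal muscle symbols gave 18 tested genes, with mylpfa, casq1a and pvalb2 at 0, and summed to 71, 53.4, 284 and 1168 FPKM in IPP brains, against 79.1, 111, 231 and 1354 FPKM in DMSO brains. The 19 markers of fibroblasts and keratocytes gave 15 tested genes and summed to 46.2, 44.9, 122 and 84.2 FPKM in IPP brains, against 43.9, 52.3, 65.4 and 100.4 FPKM in DMSO brains. All 4 lists were low in libraries 1 and 2 of the IPP group, and each list had a higher mean log2 level in libraries 3 and 4 than in libraries 1 and 2 of the same group.

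The markers of bone followed this order with a smaller gap, and those of vessels did not. The 20 vessel markers, 17 of them tested, summed to 45.1, 46.9, 49 and 69.3 FPKM in IPP brains, against 53.5, 48.6, 51.5 and 46.9 FPKM in DMSO brains, and the receptor kdrl had 4.05, 5.49, 4.45 and 5.36 FPKM in IPP brains, against 6.52, 5.06, 5.84 and 4.49 FPKM in DMSO brains. The 13 bone markers, 9 of them tested and bglap at 0, summed to 50.5, 39.8, 53.5 and 59.3 FPKM in IPP brains, against 42.7, 47.2, 65.3 and 59.4 FPKM in DMSO brains. The 14 pericyte and smooth muscle markers, 12 of them tested, summed to 61.5, 60.2, 84.3 and 212 FPKM in IPP brains, against 59.5, 56.5, 69.6 and 78.4 FPKM in DMSO brains, with IPP brain 4 on top. Liver and gut markers, 21 of 23 tested, marked other libraries, and their most abundant gene apoa2 had 8.1, 5.7, 1.25 and 3822 FPKM in IPP brains, against 2186, 4.21, 4.1 and 6.8 FPKM in DMSO brains. The 12 eye markers, 7 of them tested in brains, summed to 17.3, 16.6, 34.9 and 129 FPKM in IPP brains, against 15.4, 18.8, 36.8 and 8.69 FPKM in DMSO brains. IPP brain 4 was highest and DMSO brain 4 lowest for these. The part of these tissues in the collagen levels was not tested.

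**Figure D3:**
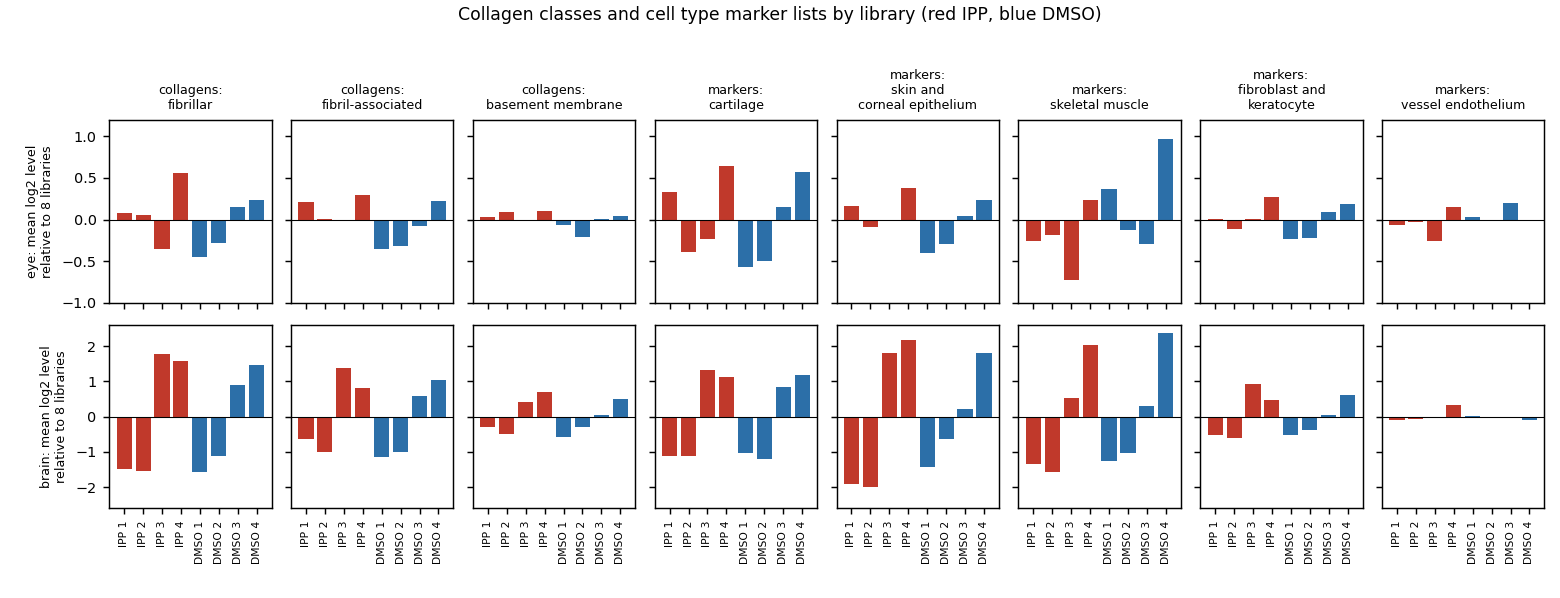
Mean log2(FPKM + 0.5) of the tested genes of 3 collagen classes and 5 marker lists in each library, relative to the mean of the 8 libraries of the tissue (eyes above, brains below; IPP bars left of DMSO bars). In brains the collagen, cartilage and fibroblast bars are positive in libraries 3 and 4 of both groups and negative in libraries 1 and 2, and the vessel bars stay near 0.

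Some chains that share a triple helix, such as those of type I, kept near-constant ratios while their levels ranged widely. The FPKM of col1a2 divided by the sum of col1a1a and col1a1b was 0.630 ± 0.0167 in IPP eyes and 0.614 ± 0.0292 in DMSO eyes, and 0.595 ± 0.0278 in IPP brains and 0.587 ± 0.0435 in DMSO brains (SD, n = 4 each). Over the 8 brain libraries this ratio stayed within 0.523 to 0.630, while the sum in its denominator ranged 11.96-fold. The ratio of col9a3 to col9a2 was 0.978 to 1.17 in brains over a 40.6-fold range of col9a2, and 0.917 to 1.18 in eyes. The ratio of col9a1a to col9a2 was 0.510 to 0.806 in eyes and 0.295 to 0.998 in brains. col6a2 and col6a1 kept a ratio of 0.686 to 0.887 in eyes, while in brains it ran over 0.145 to 0.748 and was lowest where both genes were low. Such ratios compare genes within a library and carry no test.

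Chains of the same helix that lie side by side in the genome were also read together. col4a5 and col4a6 start 753 bases apart on opposite strands of chromosome 7, and the ratio of col4a6 to col4a5 was 0.308 to 0.430 in eyes and 0.350 to 0.672 in brains. col4a3 and col4a4 are annotated head to head on chromosome 15 with overlapping starts. col4a3 averaged 3.81 ± 0.47 FPKM in IPP eyes and 3.77 ± 0.591 FPKM in DMSO eyes. col4a4 averaged 3.52 ± 0.75 FPKM in IPP eyes and 3.27 ± 0.635 FPKM in DMSO eyes. In brains both were below the minimum, col4a3 at 0.0499 to 0.156 FPKM in IPP brains and 0.0301 to 0.159 FPKM in DMSO brains and col4a4 at 0.224 to 0.63 FPKM in IPP brains and 0.193 to 0.292 FPKM in DMSO brains. The paralogs col1a1b and col1a1a stood in a ratio of 2.84 to 4.72 in eyes and 1.74 to 3.02 in brains, and col2a1b and col2a1a in one of 0.873 to 1.57 in eyes and 0.463 to 1.37 in brains.

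**Figure D4:**
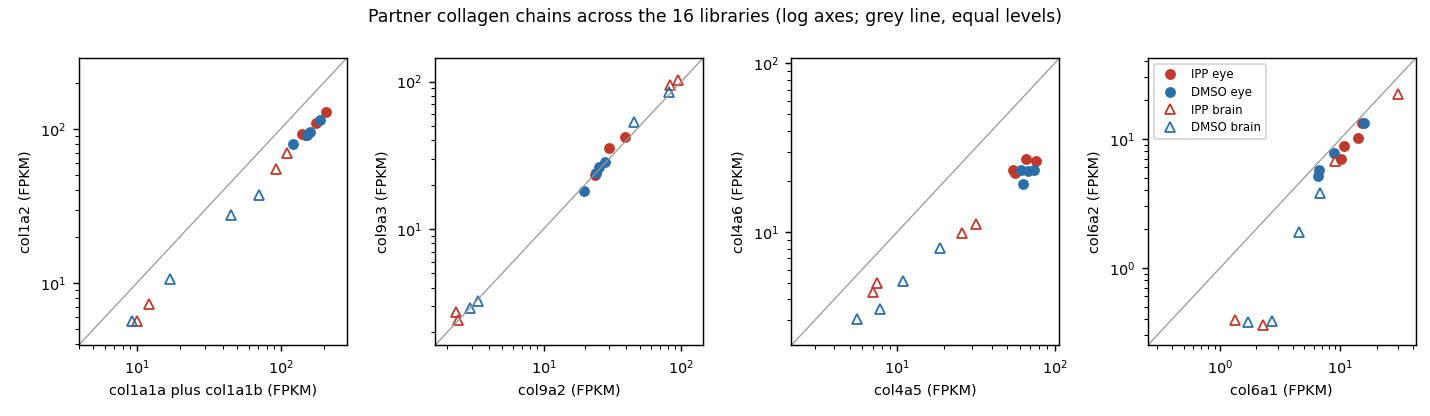
FPKM of partner chains against each other in the 16 libraries (log axes, each tissue scaled separately; filled circles are eyes, open triangles brains, red IPP, blue DMSO, grey line equal levels). col1a2 and col9a3 keep a near-constant ratio to their partners across libraries whose denominators range 11.96-fold and 40.6-fold in brains, and col6a2 drops away from col6a1 in the 4 low brain libraries.

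Of the type XXVIII chains, col28a1a and col28a1b passed the minimum in the eye and not in the brain, and col28a2a passed it in both. col28a1a lay at 0.0767 to 0.491 FPKM in IPP brains and 0.117 to 0.169 FPKM in DMSO brains, and col28a1b at 0 to 0.178 FPKM in IPP brains and 0.098 to 0.176 FPKM in DMSO brains, below the minimum for a test, against the eye levels given above. Of the 10 identifiers below the minimum in both tissues, the network chain col8a1a was at 0 in all 16 libraries. The 2 col6a3 identifiers lie on the same strand of chromosome 9, at 23914317 to 23990416 and 23983866 to 23994225, and overlap over part of their length. They held at most 1 read in any library. The reason was not tested, and no level of the gene is read from this count. The others of this group, col5a3a, col27a1b, col8a1b, col10a1b, col21a1 and col28a2b and a col19a1 identifier, had means below the minimum in each tissue. In all, 11 genes fell below it in the eye and 15 in the brain.

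In the organ that senses the light, IPP eyes were compared with DMSO eyes to learn whether the exposure changed collagen expression. None of the 43 collagen genes tested was called at an adjusted p under 0.05 by limma on log2(FPKM + 0.5), where 0% of all 17096 genes were called, and the smallest adjusted p of a collagen was 0.344. limma-voom on the rebuilt reads called 0 as well. At an unadjusted p under 0.05 there were 2 collagens higher in IPP eyes, against 5.3% of all genes, and 0 lower, against 5.73% of all genes. Without DMSO eye 4 these counts were 9 higher, against 9.64% of all genes, and 1 lower, against 7.53%, with no collagen called and an adjusted p of 0.0849 by limma for col7a1l. Among the eye libraries DMSO eye 4 had the lowest sums of eye and lens markers and the highest of skeletal muscle markers. Its eye markers summed to 12527 FPKM, against 14227 to 14916 FPKM in IPP eyes and 14971 to 15522 FPKM in DMSO eyes 1 to 3. Its muscle markers summed to 298 FPKM, against 69.7 to 151 FPKM in IPP eyes and 109 to 214 FPKM in DMSO eyes 1 to 3. The part of this make-up in the counts was not tested. With all libraries kept, fold changes were above 0 in 38 collagens and below 0 in 5, against 49.5% of all genes above 0. The median log2 fold change was 0.16 for collagens and -0.0037 for all genes, beside a median SE of 0.21 for the single collagen.

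The collagens with the smallest p in the eye were all above 0. col7a1l, a gene annotated as like col7a1 (chromosome 4, 15889437 to 15966260, plus strand), had 1.21, 1.59, 1.38 and 1.54 FPKM in IPP eyes, against 0.676, 0.55, 0.544 and 1.21 FPKM in DMSO eyes. Every IPP eye lay above every DMSO eye, though IPP eye 1 and DMSO eye 4 nearly met (log2 fold change 0.66, SE 0.21, adjusted p = 0.344 by limma), and it was the sole collagen of the 43 tested whose groups did not overlap, an order that 2.22% of all genes had in this direction and 3.54% in the opposite one. The gene overlaps 3 other annotated genes on its own strand and rests on 44 to 161 reads per library. col4a2 had 6.41, 5.72, 4.97 and 5.51 FPKM in IPP eyes, against 3.27, 3.25, 3.95 and 5.98 FPKM in DMSO eyes. DMSO eye 4 lay above 3 of the 4 IPP eyes, so the groups overlap (log2 fold change 0.45, SE 0.19, adjusted p = 0.427 by limma). Its partner col4a1 had 5.04, 3.71, 3.21 and 2.76 FPKM in IPP eyes, against 2.69, 1.64, 1.45 and 4.43 FPKM in DMSO eyes. Here too DMSO eye 4 lay among the IPP eyes (log2 fold change 0.53, SE 0.30, adjusted p = 0.524). col12a1b, a paralog of col12a1a, had 3.89, 2.16, 3.84 and 2.17 FPKM in IPP eyes, against 1.5, 0.356, 1.3 and 3.74 FPKM in DMSO eyes. DMSO eye 2 was the lowest and DMSO eye 4 lay among the IPP eyes (log2 fold change 0.84, SE 0.43, adjusted p = 0.488). For col2a1a the values were 61.1, 42.3, 35 and 63 FPKM in IPP eyes, against 27.7, 39.7, 42.8 and 41.1 FPKM in DMSO eyes. IPP eyes 1 and 4 were highest, and IPP eyes 2 and 3 lay among the DMSO eyes (log2 fold change 0.39, SE 0.21, adjusted p = 0.508).

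Of the genes below 0, 3 reached a mean of 1 FPKM. col15a1b had 47.6, 53.2, 52.3 and 54.6 FPKM in IPP eyes, against 60.4, 62.9, 59.7 and 46.3 FPKM in DMSO eyes, with DMSO eye 4 below all IPP eyes (log2 fold change -0.13, SE 0.11, adjusted p = 0.657). col4a5 had 54.4, 65.8, 56.5 and 76.6 FPKM in IPP eyes, against 67.9, 62.8, 74.5 and 61.2 FPKM in DMSO eyes, with IPP eye 4 highest and IPP eye 1 lowest (log2 fold change -0.08, SE 0.12, adjusted p = 0.83). For col10a1a, given above, the log2 fold change was -0.20 with an SE of 1.39 (adjusted p = 0.965). It ran over -1.02 to 0.92 as single libraries were left out.

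By class, the fold changes were above 0 in 12 of 13 fibrillar genes (median 0.14), 9 of 9 fibril-associated genes (median 0.24) and 6 of 9 basement membrane genes (median 0.02). They were also above 0 in all 3 tested type VI genes, both type VII genes, both type XVII genes and all 3 tested type XXVIII genes. Of the 2 tested network genes, col8a2 lay above 0 (0.34, SE 0.19) and col10a1a below it. Among the abundant genes, col1a1b had a log2 fold change of 0.11 (SE 0.15), col1a2 0.14 (SE 0.14), col5a1 0.19 (SE 0.19), col9a2 0.24 (SE 0.17), col17a1a 0.22 (SE 0.17), col6a1 0.46 (SE 0.26) and col18a1a 0.01 (SE 0.19). No class had a called member.

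The balance of signs moved with the libraries included. With single libraries left out, the count above 0 was 31 to 39 of 43 and the median 0.091 to 0.279, both lowest without IPP eye 4. DMSO eyes 1 and 2 had the lowest shares of collagen reads, while by summed FPKM IPP eye 3 (724 FPKM) lay between them (680 and 751 FPKM). Without DMSO eyes 1 and 2, 22 of 43 collagens lay above 0, against 50.7% of all genes, and the median was 0.0021. No collagen then had an unadjusted p under 0.05, against 2.2% of all genes higher and 2.52% lower. As that pair was chosen after seeing the data and for its low values, the drop in the count follows in part from the choice. With the mean level of the skin list as a covariate, 26 lay above 0 and the median was 0.02. The share of all genes above 0 was not worked out in this fit, nor in those without single libraries other than DMSO eye 4. In the skin list 21 of 26 tested genes also lay above 0 in IPP eyes (median 0.28). The covariate thus shares part of the difference between the groups, and the fit cannot tell skin content from exposure. The skin and corneal epithelium markers, 26 of 30 tested with epcam at 0, summed to 3686, 3001, 3470.1 and 4536 FPKM in IPP eyes, against 2629, 2674, 3766 and 3918 FPKM in DMSO eyes, and were lowest in DMSO eyes 1 and 2. The cartilage markers, 15 of 21 tested with snorc at 0, summed to 151, 109.8, 121 and 195 FPKM in IPP eyes, against 91.2, 107, 133 and 160.3 FPKM in DMSO eyes. Fibroblast and keratocyte markers, 15 of 19 tested, ranged over 154 to 237 FPKM in IPP eyes and 140.4 to 177 FPKM in DMSO eyes, bone markers, 7 of 13 tested, over 45.1 to 60.4 FPKM in IPP eyes and 46.7 to 64.6 FPKM in DMSO eyes, and pericyte and smooth muscle markers, 12 of 14 tested, over 50.7 to 78.8 FPKM in IPP eyes and 49.5 to 59.12 FPKM in DMSO eyes. Skeletal muscle markers, 16 of 25 symbols tested, ranged over 69.7 to 151 FPKM in IPP eyes and 109 to 298 FPKM in DMSO eyes. Vessel markers, 17 of 20 tested, ranged over 73.3 to 88 FPKM in IPP eyes and 80.2 to 98.2 FPKM in DMSO eyes. The part of these tissues in the collagen values was not tested.

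**Figure D5:**
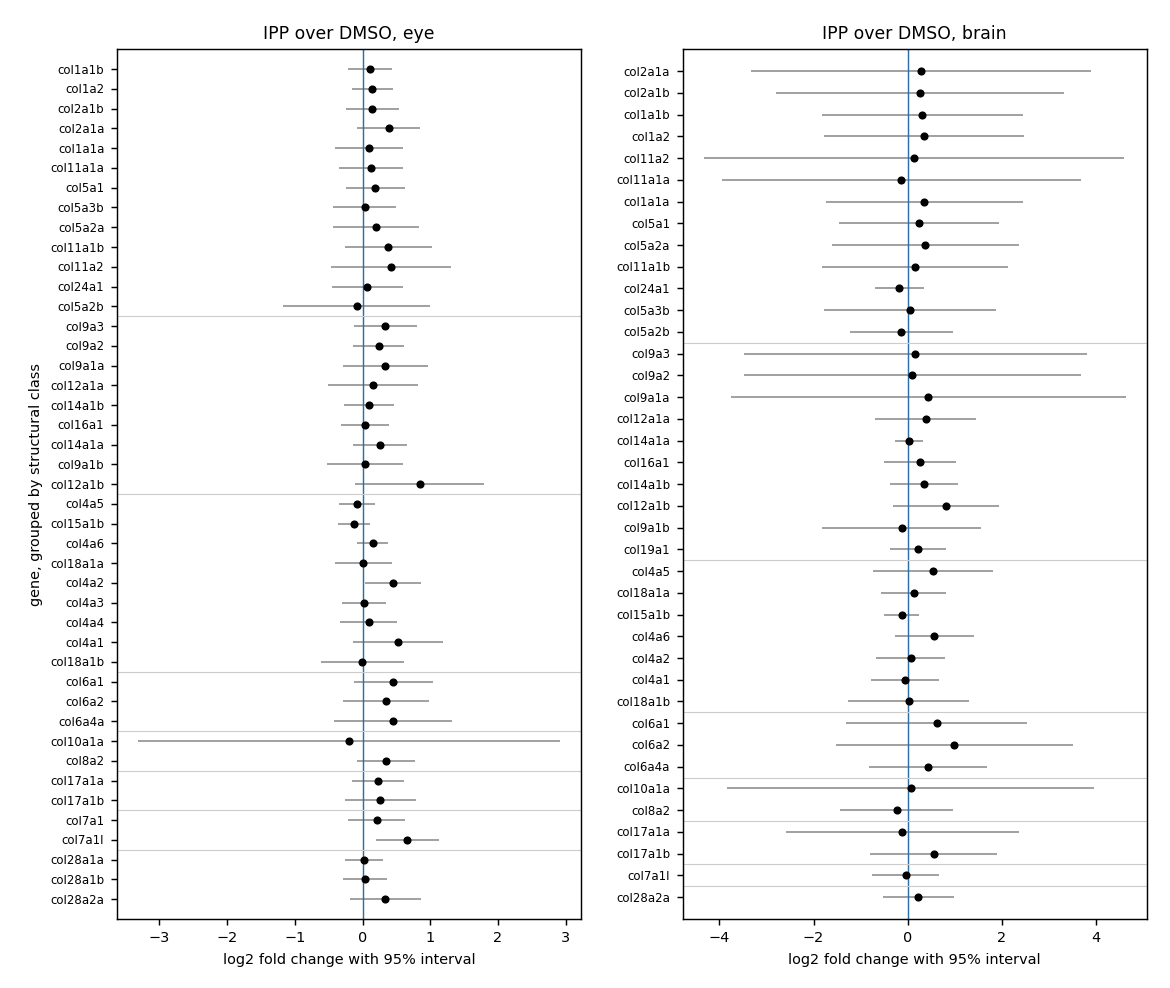
Log2 fold change of IPP over DMSO (points, on FPKM + 0.5) with 95% intervals of the limma fit (bars) for the 43 collagen genes tested in eyes and the 39 tested in brains, in the same order as the heat map. The widest eye interval is that of col10a1a, followed by those of col5a2b and col12a1b, while the cartilage and type I genes of the brain have intervals several log2 units wide.

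In the brain the same comparison was far less precise for collagens. None of the 39 genes tested was called by limma, where 0% of all 17533 genes were called, and limma-voom called 0. No collagen had an unadjusted p under 0.05 by either tool, against 1.56% of all genes higher and 1.36% lower by limma. Fold changes were above 0 in 30 and below 0 in 9, against 53.1% of all genes above 0, with a median of 0.22 for collagens and 0.01 for all genes. The median SE was 0.59 for collagens and 0.19 for all genes. For col2a1a the log2 fold change was 0.29 with an SE of 1.58, and its 95% interval ran over -3.33 to 3.90. At this spread, in a fit without the number as a block, a change of several fold was not detectable for such genes. Among libraries 3 and 4 alone the SE of col2a1a was 0.16, and among libraries 1 and 2 alone it was 0.22.

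The brain collagens with the smallest p were col12a1b, col4a6, col14a1b, col4a5 and col17a1b above 0 and col15a1b, col24a1, col8a2, col4a1 and col9a1b below 0. col12a1b had 3.63, 1.27, 3.24 and 1.33 FPKM in IPP brains, against 0.105, 1.25, 1.56 and 1.92 FPKM in DMSO brains. DMSO brain 1 was far below the other 7 libraries (log2 fold change 0.81, SE 0.49). For col4a6, whose values are given above, the log2 fold change was 0.56 (SE 0.37), for col4a5 0.55 (SE 0.56), for col14a1b 0.34 (SE 0.31) and for col17a1b 0.55 (SE 0.59). Below 0, col15a1b had -0.13 (SE 0.16), col24a1 -0.18 (SE 0.23), col8a2 -0.24 (SE 0.53), col4a1 -0.06 (SE 0.32) and col9a1b -0.13 (SE 0.74). In every one of these 10 genes the groups overlap. Over all genes 0.958% had groups apart in the higher direction and 1.1% in the lower one, and no tested collagen had.

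The brain groups were also compared among libraries 3 and 4 and among libraries 1 and 2, a check chosen after seeing the split. In libraries 3 and 4 alone, 30 of 39 collagens lay above 0, against 53.4% of all genes, with a median of 0.44. Of these, 6 had an unadjusted p under 0.05, against 4.39% of all genes higher and 4.78% lower, while the smallest adjusted p was 0.450. Among these, col1a2 had a log2 fold change of 0.94 (SE 0.21), col4a5 0.97 (SE 0.30) and col1a1b 0.92 (SE 0.30). That fit rests on 2 libraries per group, of which DMSO brain 3 was lowest in collagen, skin and cartilage sums. Its collagen sum was 527 FPKM, against 798 FPKM in DMSO brain 4 and 985 and 973 FPKM in IPP brains 3 and 4. Its skin list summed to 660 FPKM, against 2332 FPKM and 2357 and 2313 FPKM in the same libraries. Collagens that move together are not separate observations, and the part of DMSO brain 3 was not tested. In libraries 1 and 2 alone, 18 of 39 lay above 0, against 45.3% of all genes, with a median of -0.01. Only 32 of these collagens reach the minimum of 0.5 FPKM over libraries 1 and 2, and fold changes of the rest are understated on this scale. None had an unadjusted p under 0.05, against 6.61% of all genes higher and 4.14% lower. There, col1a2 had a log2 fold change of -0.25 (SE 0.33), col4a5 0.12 (SE 0.20) and col1a1b -0.29 (SE 0.30). The difference between these subsets was not tested. The count above 0 was 15 without IPP brain 3, 12 without IPP brain 4, 13 without DMSO brain 1 and 17 without DMSO brain 2. It was 36 without IPP brain 2, and 7 without both DMSO brain 1 and IPP brain 4. Since libraries 3 and 4 were far higher in both groups, these counts follow in part from which high and low libraries remain. The shares of all genes above 0 in these fits were not worked out.

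The change under IPP was set between the tissues for the 38 collagens tested in both. None differed by limma's interaction contrast, where 0% of 15856 genes were called and 4.04% had an unadjusted p under 0.05, and no collagen had an unadjusted p under 0.05. The smallest was that of col7a1l, with an eye minus brain difference of 0.70 (SE 0.35). The precision in the brain limits this contrast, so it does not show that the tissues respond alike.

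The genes that build, fasten and read collagen were followed as 6 lists. Beside the counts below, 49.5% of all genes tested lay above 0 in eyes and 53.1% in brains. In eyes, matrix proteins that bind collagen lay above 0 in 14 of 14 tested genes (median 0.19), and in brains in 12 of 13 (median 0.19). Their smallest p in eyes were those of postnb, a periostin of collagen-rich tissue, and of lum and dcn, small proteoglycans that set fibril spacing. postnb had 35.4, 35.1, 33.9 and 47.7 FPKM in IPP eyes, against 22.3, 25.8, 37.4 and 26.2 FPKM in DMSO eyes. lum had 11.6, 7.76, 9.34 and 10.5 FPKM in IPP eyes, against 5.76, 6.41, 8.92 and 7.88 FPKM in DMSO eyes. IPP eyes were mostly higher, but DMSO eye 3 lay among them for both genes (log2 fold changes 0.45, SE 0.17, and 0.42, SE 0.17, adjusted p = 0.389 and 0.413 by limma). dcn had a log2 fold change of 0.21 (SE 0.13).

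Collagen receptors lay above 0 in 10 of 11 tested genes in eyes (median 0.23) and 6 of 10 in brains (median 0.08). The integrin beta 1 chains had the smallest p in eyes. itgb1b had 17.3, 15.5, 15.8 and 13.9 FPKM in IPP eyes, against 12.3, 9.15, 8.78 and 15.3 FPKM in DMSO eyes, with DMSO eye 4 among the IPP eyes (log2 fold change 0.47, SE 0.17, adjusted p = 0.381). itgb1a had a log2 fold change of 0.31 (SE 0.12) and itgb1b.1 of 0.50 (SE 0.20), and reads shared between such near copies make their separate values uncertain. In brains the smallest p were those of itgb1b with 0.12 (SE 0.14), the collagen-sensing kinase ddr1 with 0.08 (SE 0.11) and ddr2b with 0.37 (SE 0.67).

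Partners of collagen in basement membranes lay above 0 in 12 of 16 tested genes in eyes (median 0.15) and 8 of 15 in brains (median 0.07). In eyes these were led by the laminin chain lamc1, which had 16.3, 16.6, 15.2 and 17.7 FPKM in IPP eyes, against 12.3, 9.79, 12.8 and 16.5 FPKM in DMSO eyes. IPP eyes were higher apart from DMSO eye 4 (log2 fold change 0.37, SE 0.14, adjusted p = 0.406). The nidogen nid1b had 0.38 (SE 0.16) and the perlecan gene hspg2 0.65 (SE 0.30). In brains hspg2 had 0.29 (SE 0.30), the laminin chain lama1 -0.14 (SE 0.14) and the dystroglycan gene dag1 -0.10 (SE 0.10).

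Genes that fold and modify collagen inside the cell lay above 0 in 15 of 24 tested genes in eyes (median 0.09) and 18 of 22 in brains (median 0.13). creb3l2, a regulator of collagen secretion, had 0.24 (SE 0.12) in eyes, p4ha1a, a chain of the prolyl hydroxylase that steadies the helix, 0.50 (SE 0.31), and the collagen chaperone serpinh1a -0.18 (SE 0.14). In brains the prolyl isomerase ppib had 0.27 (SE 0.15), its partner crtap 0.28 (SE 0.17) and the secretion receptor mia3 -0.14 (SE 0.10). Genes that trim and crosslink collagen outside the cell lay above 0 in 8 of 14 in eyes (median 0.08) and 9 of 13 in brains (median 0.13). loxl2a, a lysyl oxidase that crosslinks chains, had 6.33, 4.04, 3.85 and 9.03 FPKM in IPP eyes, against 2.43, 2.56, 3.1 and 4.32 FPKM in DMSO eyes, with DMSO eye 4 above IPP eyes 2 and 3 (log2 fold change 0.76, SE 0.27, adjusted p = 0.377). The procollagen peptidases adamts14 and bmp1b had 0.65 (SE 0.36) and -0.20 (SE 0.16) in eyes, and in brains bmp1a had 0.15 (SE 0.09), loxl2b 0.27 (SE 0.26) and pcolce2b 0.13 (SE 0.13). Genes of collagen breakdown lay above 0 in 10 of 15 in eyes (median 0.26) and 11 of 14 in brains (median 0.25). The protease gene fap had 0.44 (SE 0.24), mmp16b 0.75 (SE 0.42) and the inhibitor timp4.1 0.37 (SE 0.22) in eyes, and in brains mmp15b had 0.85 (SE 0.33), mmp9 0.55 (SE 0.31) and timp2a 0.52 (SE 0.36). No gene of the 6 lists was called in either tissue by limma. At an unadjusted p under 0.05 and above 0 there were in eyes 3 of 11 receptors, 2 of 14 binding proteins, 2 of 16 basement membrane partners and 1 of 14 maturation genes, against 5.3% of all genes. In brains there was 1 of 14 breakdown genes, against 1.56% of all genes. None of the 6 lists had such a gene below 0 in either tissue. Of the 6 lists, 5 had their lowest mean level in DMSO eyes 1 and 2, the libraries with the lowest shares of collagen reads. The exception was that of the basement membrane partners, lowest in DMSO eyes 2 and 3. In brains each of the 6 lists had a higher mean level in libraries 3 and 4 than in libraries 1 and 2 of the same group. Counts for the lists without such libraries were not worked out.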

How the data were processed

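RNA sequencing of 16 libraries (4 each of IPP eyes, DMSO eyes, IPP brains and DMSO brains) was read from the authors' deposited FPKM tables, 1 per tissue, with gene lengths and positions. The submitters' notes name HISAT2 2.0.5 and featureCounts 1.5.0-p3. Their roles, the annotation and the FPKM formula were not stated. FPKM times length was divided by its smallest value above 0 in each library, which was taken as 1 read. This gave whole reads in 100% of values, within 0.01 read. The rebuilt reads and depths rest on that step. Levels were tested as log2(FPKM + 0.5), for genes with a mean of 0.5 FPKM or more in that tissue, with limma 3.58.1 in R 4.3.3 (eBayes with trend, two-sided, Benjamini-Hochberg over all tested genes, threshold 0.05). Fold changes on this scale understate changes of low genes. No covariate or block was used.

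The members and gene lists were chosen with earlier results of these data known. Genes are named by this rule: per tissue and direction up to 5 tested collagens with the smallest p and a mean of at least 1 FPKM, the 2 most abundant of each class, 20 collagens in any case, the 3 smallest p of each pathway list and the 3 most abundant of each marker list. Other genes, such as those at 0, those far below the minimum and those that did not show the split, are given to account for the family. The cartilage markers acana, epyc and cnmd were picked outside the rule, after their values were seen. Alternatives were other pseudocounts (0.1 and 1), no filter or one at 2 FPKM, median-of-ratios, equal-sum and quantile scaling, robust eBayes, limma-voom on the rebuilt reads, the skin list as covariate, the replicate number as a block and each library left out. Median-of-ratios scaling divided all libraries of a tissue by the same factor, so it was no separate check. Leaving out sets of libraries, and protein-coding genes only, were chosen after seeing the data. The test was tried on simulated data. Libraries far from their group were marked by Dixon's criterion (critical value 0.829 for 4 values). Figures were drawn with matplotlib 3.10.9 in Python 3.11.15.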

Additional observations from a re-analysis of the deposited data

Results flagged for a closer look

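Among 116 groups of 4 libraries, those of the 58 tests of collagens named singly, 6 held a library far from the other 3 of its group. For values of a single normal distribution, chance marks about 1 group in 20, and the 6 lie near that rate. Brain groups with 2 low and 2 high libraries can hardly be marked. In IPP brains the marked genes were col15a1b, col28a2a and col9a1b, each in library 3. col15a1b stood at 12.3 FPKM there, against 7.89 to 8.59 FPKM in the other IPP brains. For col28a2a the value was 2.74 FPKM, against 0.955 to 1.08 FPKM. col9a1b, a paralog of the type IX chain col9a1a, had 3.65 FPKM, against 0.0677 to 0.501 FPKM. In DMSO brains col9a1b was far off in library 4 with 3.92 FPKM, against 0.194 to 0.617 FPKM in the other DMSO brains, so each group had 1 high library for this gene. In DMSO eyes col18a1a was high in library 3 with 23.1 FPKM, against 17.3 to 18.3 FPKM, and col17a1b was low in library 1 with 1.62 FPKM, against 3.10 to 3.21 FPKM. The 3 IPP brain values come from the same library, which is 1 of the 2 deepest. The part of depth in these values was not tested.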

How the results depend on the processing

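No collagen was called in either tissue, or in the contrast between them, under any alternative that was run, including each library left out. Median-of-ratios scaling could hardly differ from the main fit, as its factor was the same in every library of a tissue. The count above 0 in eyes was 31 to 39 with each library left out and 22 of 43 without DMSO eyes 1 and 2. In brains it was 12 to 36 with each library left out, 18 of 39 without libraries 3 and 4 of both groups and 7 without DMSO brain 1 and IPP brain 4. The 12 to 36 and the 7 follow in part from which high and low libraries remain. The brain median ran over -0.22 to 0.69 with each library left out. Without DMSO eye 4 and IPP eye 4, 40 genes were called over the whole eye table and 9 collagens had an unadjusted p under 0.05 (8 higher, against 10.2% of all genes, and 1 lower, against 8.41%), none of them called. Without DMSO eye 4 alone 3 genes were called and 10 collagens had such a p (9 higher, against 9.64% of all genes, and 1 lower, against 7.53%). Without each of the other eye libraries 1 to 4 collagens had, and the shares of all genes in those fits were not worked out. Single fold changes were followed over these settings only for the collagens of smallest p named in each tissue. The counts above 0 show that other collagens turned sign too. Among those followed, the log2 fold change turned sign with single libraries left out for col10a1a in eyes (-1.02 to 0.92). In brains it did so for col8a2 (-0.52 to 0.085), col4a1 (-0.24 to 0.15) and col9a1b (-0.72 to 0.44). It turned as well for col4a1 in brains without libraries 3 and 4 (0.35), and without DMSO brain 1 and IPP brain 4 for col4a5 (-0.075) and col17a1b (-0.012). The cause was not tested.

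With the number as a replicate block, 0 collagens were called in each tissue, and 1 in eyes and 2 in brains had an unadjusted p under 0.05. The shares of all genes under that p in the block fits were not worked out, so these counts are not read further. Over all genes tested, the deviations of same-numbered libraries correlated at -0.088 to 0.039 in eyes and -0.094 to 0.331 in brains. Only brain number 2 correlated best with its own number, and the numbers were not taken as pairs. Correlations over all genes do not describe the brain collagens, most of which split by number in both groups. col7a1l and other genes below 2 FPKM give no value under the stricter filter. Genes at a few reads in the low brain libraries are limited by counting.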
